A study of Mus musculus with 12 samples.

Results

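The step from day 2 to day 4 of doxycycline (Dox) was examined in AML246, a mouse acute myeloid leukemia (AML) with a normal karyotype, no p53 and an inducible hairpin against PU.1. The comparison holds 6 of the 12 libraries of the series, the 3 taken after 2 days on Dox and the 3 taken after 4 days, chosen by their titles, and it was made across all genes. Each library gave read counts for 27179 Entrez genes, and 12057 of them had enough counts to be tested.

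The cells grew in the bone marrow of leukemic recipient mice of the C57BL/6 strain, where Dox shut off the hairpin together with the GFP linked to it. Day 2 cells (2 days Dox) were sorted as GFPhigh-mid and day 4 cells (4 days Dox) as GFPmid, so the gate moved with the time, and gate and time cannot be told apart. Every library of both groups shares the p53-/- background, the hairpin, the Dox and the AML246 origin, so the comparison describes 1 leukemia. The neighbouring groups, used here for the steps before and after, were untreated cells sorted as GFPhigh and cells after 6 days of Dox sorted as GFPlow, with 3 libraries each. The titles call the libraries of a group technical replicates while the series text speaks of triplicate mice, so the p-values measure the spread between these libraries, which may be technical.

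PU.1 is the ETS transcription factor encoded by Spi1. It is needed for the monocyte and neutrophil lineages, where it acts at the genes of growth factor receptors, pattern recognition receptors, antigen presentation and the respiratory burst. A high level of PU.1 favours the monocyte and macrophage fate, and a low level holds myeloid progenitors back from maturation and can favour leukemia.

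Total counts were 4918920 to 6705112 at day 2 and 6449662 to 6728656 at day 4. At these depths 3 counts equalled 0.446 to 0.610 CPM, the count scaled to a fixed library size, a limit that covers counting error alone. Levels below are CPM scaled by TMM factors, and folds and p-values come from one edgeR quasi-likelihood fit of all 12 libraries, with p-values adjusted over the 12057 genes. A gene was called at an adjusted p under 0.05. Marker lists of 4 other blood lineages were low. Summed over 15 erythroid, 12 megakaryocyte, 16 B cell and 18 T and NK cell genes, they gave at most 6.41, 12.4, 11.9 and 18.7 CPM in any of the 6 libraries. The 15 dendritic cell genes summed to more, 185.7 to 264.5 CPM at day 2 and 300.6 to 331.7 CPM at day 4. The eosinophil, basophil and mast cell genes, described below, reached 1173 CPM in day 4 replicate 2. Hoxa9 had no count and Meis1 at most 1 count in any of the 12 libraries, while Mpo stood at 12372 ± 562 CPM (SD, n = 3) at day 2, which marks the cells as myeloid.

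Spi1 (Entrez 20375, GRCm38 chromosome 2, 91082374 to 91115759) stood at 107, 98.8 and 123 CPM in day 2 replicates 1, 2 and 3, and at 244, 267 and 270 CPM in those of day 4. All day 4 libraries lay above all day 2 libraries. The ratio of the means was 2.37, and the log2 fold change was 1.25 ± 0.11 (SE; adjusted p = 1.53e-05). The step before, from untreated cells to day 2, had a log2 fold change of 0.81, and the step after, to day 6, one of 0.82. The exact two-sided permutation p over the 6 libraries was 0.1, the smallest that 3 against 3 allow. Trp53 (Entrez 22059), labelled as deleted, had 43.9, 40.3 and 42.1 CPM at day 2 and 33.3, 25.95 and 30.8 CPM at day 4 (log2 fold change -0.49 ± 0.11, adjusted p = 0.00689; exact permutation p = 0.1). Reads counted over the whole gene do not show which exons they came from, so this value does not check the deletion.

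Across all genes, 1812 were higher (15% of those tested) and 1230 lower (10.2%) at day 4 than at day 2. At least 2-fold, 646 genes rose (5.36%) and 324 fell (2.69%). The median log2 fold change of all genes was -0.02. The libraries of the days did not overlap in 3033 genes that lay higher at day 4 (25.2%) and 3005 that lay lower (24.9%). Of the called genes 59.6% were higher. Counts of called members in the lists below are to be read beside the shares of all genes, 15% higher and 10.2% lower. At 10 CPM or more the ratio of means reached 89.8 among the rises (Rnase6), leaving out a gene with 1 count at day 2, and 8.34 among the falls (Serpinh1).

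The split between rises and falls depends on the scaling. With upper-quartile factors 43.8% of the calls were higher (1479 higher and 1897 lower), and with library totals alone 35.1% (1251 higher and 2312 lower). These scalings shifted the median log2 fold change of all genes by -0.0837 and -0.138, so small changes below are relative to the TMM scaling. The fall count also rested on single libraries, with 581 genes without day 4 replicate 2, 621 without replicate 3 of day 4, 716 and 722 without replicates 1 and 3 of day 2, and 1882 without day 6 replicate 2. Day 6 replicate 2 stands apart from its group and enters here through the shared estimate of the spread. Without all 3 day 6 libraries 2226 genes were higher and 1833 lower. Of the 214 named genes that were called, 170 kept the call whichever of the 12 libraries was left out, and for the others the groups below give the number of the 12 omissions in which the adjusted p passed 0.05, with the highest such p.

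**Figure D1:**
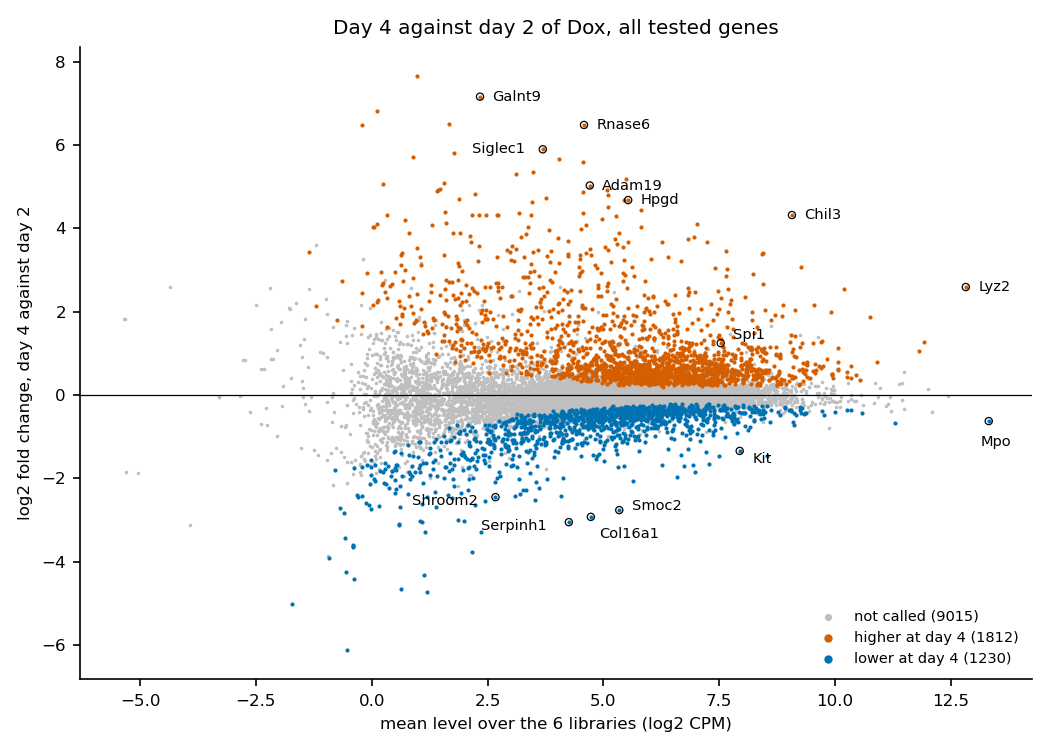
Each point is 1 of 12057 genes, with its mean level over the 6 libraries (log2 CPM, x axis) and its log2 fold change from day 2 to day 4 (y axis). Orange points are the 1812 genes called higher, blue points the 1230 called lower and grey points the rest, genes without a count in the 6 libraries are not drawn, and the labelled genes are described in the text.

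The genes with the largest rises were nearly silent at day 2, which a ranking by fold with a level limit on the higher group alone favours. Galnt9, a glycosyltransferase that starts O-linked glycans, had 1 count at day 2 in 1 library and reached 5.70, 10.6 and 13.8 CPM at day 4. Rnase6, an antimicrobial ribonuclease, went from 0.456, 0.732 and 0.393 CPM to 39.2, 54.7 and 48.1 CPM, a ratio of 89.8 (log2 fold change 6.48 ± 0.58, adjusted p = 3.3e-05). Siglec1, the sialic acid receptor of macrophages, went from a mean of 0.412 to 25.4 ± 11.2 CPM. The other 12 of the 15 largest rises were Pid1, Arhgef37, Tlr8, Sirpb1c, Alox15, Adam19, Clec4a1, Clec4a3, Ace, Aif1, Ms4a4c and Hpgd, with ratios of the means between 24.4 (Ms4a4c) and 49.8 (Pid1). Adam19, a membrane metalloproteinase, was among the tightest, with 1.22, 2.01 and 1.44 CPM at day 2 and 44.9, 55.1 and 51.8 CPM at day 4. Alox15, the 12/15-lipoxygenase, was the loosest, with 8.55, 160 and 93.5 CPM in the 3 day 4 libraries against 0.759 to 3.84 CPM at day 2. In bulk RNA a change in a transcript per cell and a change in the share of cells that hold it cannot be told apart.

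The named genes Ms4a8a and Slamf8 had no count in any day 2 library and were called higher. Ms4a8a reached 1.801, 2.19 and 2.50 CPM, at least 14.2-fold above the level of 3 counts summed over the day 2 group. Slamf8, a surface receptor of activated myeloid cells, reached 2.25, 1.60 and 1.32 CPM, at least 11.3-fold above that level. In the opposite direction Hgd and Kif21a had no count in any day 4 library, at least 9.3-fold and 4.09-fold below their day 2 means by the same reckoning over the day 4 group. Among these genes the adjusted p passed 0.05 when a single library was left out for Ms4a8a in 9 (up to 0.0901 without day 2 replicate 3).

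Transcription factors of the monocyte lineage rose in this step. Of 39 tested myeloid transcription factors 26 were higher (66.7%, against 15% of all genes) and none lower, with a median log2 fold change of 0.73. Klf4, a monocyte factor, stood at 44.0, 42.3 and 29.1 CPM at day 2 and 195, 193 and 246 CPM at day 4 (log2 fold change 2.46 ± 0.40, adjusted p = 0.00169). Irf5, which drives inflammatory cytokine genes, went from 36.9, 44.8 and 29.9 CPM to 254, 322 and 337 CPM (3.04 ± 0.47, adjusted p = 0.00115). Neither gene overlapped between the days. Maf, a factor of macrophage maturation, rose from a mean of 1.87 CPM to 17.6 ± 5.93 CPM. Nr4a1, the orphan receptor of patrolling monocytes, rose from 2.32 to 16.8 CPM, Irf7 from 72.4 to 277 CPM and Cebpb from 77.2 to 128 CPM. Outside this list Ikzf1, a lymphoid and myeloid zinc finger factor counted below with the progenitor transcription factors, rose by a ratio of 1.47. Leaving out 1 library took the adjusted p above 0.05 for Cebpb in 4 (up to 0.0831 without day 2 replicate 1).

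Several factors with a high level at day 2 did not pass the test. Irf8, a monocyte and dendritic cell factor, had 821, 613 and 484.6 CPM at day 2 and 658, 493 and 651 CPM at day 4, and the groups overlapped (adjusted p = 0.876). Cebpa, a factor of early myeloid commitment, had 389 ± 16.7 and 329 ± 31.7 CPM (adjusted p = 0.248). Cebpe, the factor of late granulocyte maturation, had 68.0 ± 27.2 and 81.5 ± 26.8 CPM (adjusted p = 0.609). Gfi1, a repressor that favours granulocytes over monocytes, had 158 ± 47.9 and 118 ± 25.1 CPM (adjusted p = 0.306). Egr1, a zinc finger factor of macrophage differentiation, had 3.65, 2.01 and 0.918 CPM at day 2 and 9.15, 8.89 and 3.52 CPM at day 4 (adjusted p = 0.0719).

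Receptors for colony-stimulating factors rose together with other cytokine receptors, with a median log2 fold change of 0.40. Of 30 tested, 14 were higher (46.7%, against 15% of all genes) and 3 lower (10%, near the 10.2% of all genes). Csf1r, the receptor for M-CSF, had 332, 360 and 227 CPM at day 2 and 698, 838 and 913 CPM at day 4 (log2 fold change 1.42 ± 0.37, adjusted p = 0.0189). Csf2ra, the GM-CSF receptor alpha chain, went from 70.8, 68.3 and 81.0 CPM to 254, 292 and 217 CPM (1.79 ± 0.12, adjusted p = 2.34e-06). Csf2rb2, which pairs with the IL-3 receptor, rose 2.13-fold, and Csf3r, the G-CSF receptor, rose 1.36-fold to 378 ± 17.4 CPM. Il10ra and Il13ra1, chains of the IL-10 and IL-13 receptors, reached 89.2 ± 19.0 and 112 ± 22.2 CPM at ratios of 7.11 and 5.13. The interferon gamma receptor chains moved apart, with Ifngr1 falling from 681 ± 58.4 to 534 ± 63.1 CPM and Ifngr2 rising from 38.3 ± 4.75 to 97.8 ± 16.4 CPM. The other falls in this list were Pdgfrb, from 160 ± 17.97 to 65.0 ± 17.7 CPM, and Il1r1. The 14 rises became 9 without day 2 replicate 3 or day 4 replicate 3. The call was lost in some of the 12 omissions of 1 library, for Csf1r in 3 (up to 0.07 without day 2 replicate 3), Csf3r in 6 (up to 0.107 without day 2 replicate 3), Ifngr1 in 4 (up to 0.139 without day 4 replicate 3) and Il1r1 in 8 (up to 0.131 without day 4 replicate 2).

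Genes of monocytes and macrophages had the highest median of the 58 lists, 26 of 37 higher, each at least 2-fold, and none lower, with a median log2 fold change of 2.33. Fcgr1, the high-affinity IgG receptor, stood at 14.7, 23.2 and 5.64 CPM at day 2 and 224, 270 and 240 CPM at day 4 (log2 fold change 4.11 ± 0.69, adjusted p = 0.00202). Ccr2, the chemokine receptor that brings monocytes out of the marrow, went from 55.9, 74.3 and 49.5 CPM to 521, 638 and 741 CPM (3.41 ± 0.38, adjusted p = 0.000187). Ace, which in monocytes trims peptides, went from 2.58, 3.48 and 1.31 CPM to 43.8, 75.7 and 79.6 CPM. No library of one day overlapped the other in these 3 genes. Fn1, fibronectin, reached 2010 ± 622 CPM from 342 ± 75.8 CPM, and Vcan, versican, reached 350 ± 105 CPM from 59.7 ± 15.9 CPM. Adgre1, the F4/80 antigen, rose 5.01-fold to 104 ± 34.9 CPM, Cd68 rose 6.68-fold and Cd14, the lipopolysaccharide co-receptor, rose 3.29-fold. Ms4a4c, Ms4a6d and Ms4a6b, tetraspanning proteins of myeloid membranes, rose 24.4-fold, 22.6-fold and 20.2-fold. Omitting single libraries ended the call of Cd14 in 3 (up to 0.0664 without day 4 replicate 2).

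Some abundant monocyte genes were already high at day 2. Ly6c2, whose protein marks classical monocytes, had 4292, 4136 and 3316 CPM at day 2 and 4746, 4203 and 4022 CPM at day 4, with overlapping libraries (adjusted p = 0.503). F13a1, a coagulation factor chain of monocytes, had 2325 ± 401 and 3415 ± 375 CPM and missed the threshold (adjusted p = 0.148). Apoe, a lipoprotein of macrophages, had 773 ± 192 and 654 ± 51.9 CPM (adjusted p = 0.82). Lyz2, lysozyme, did change, from 2114, 2415 and 1642 CPM to 9927, 13494 and 13791 CPM, a ratio of 6.03 (log2 fold change 2.59 ± 0.21, adjusted p = 9.95e-06).

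**Figure D2:**
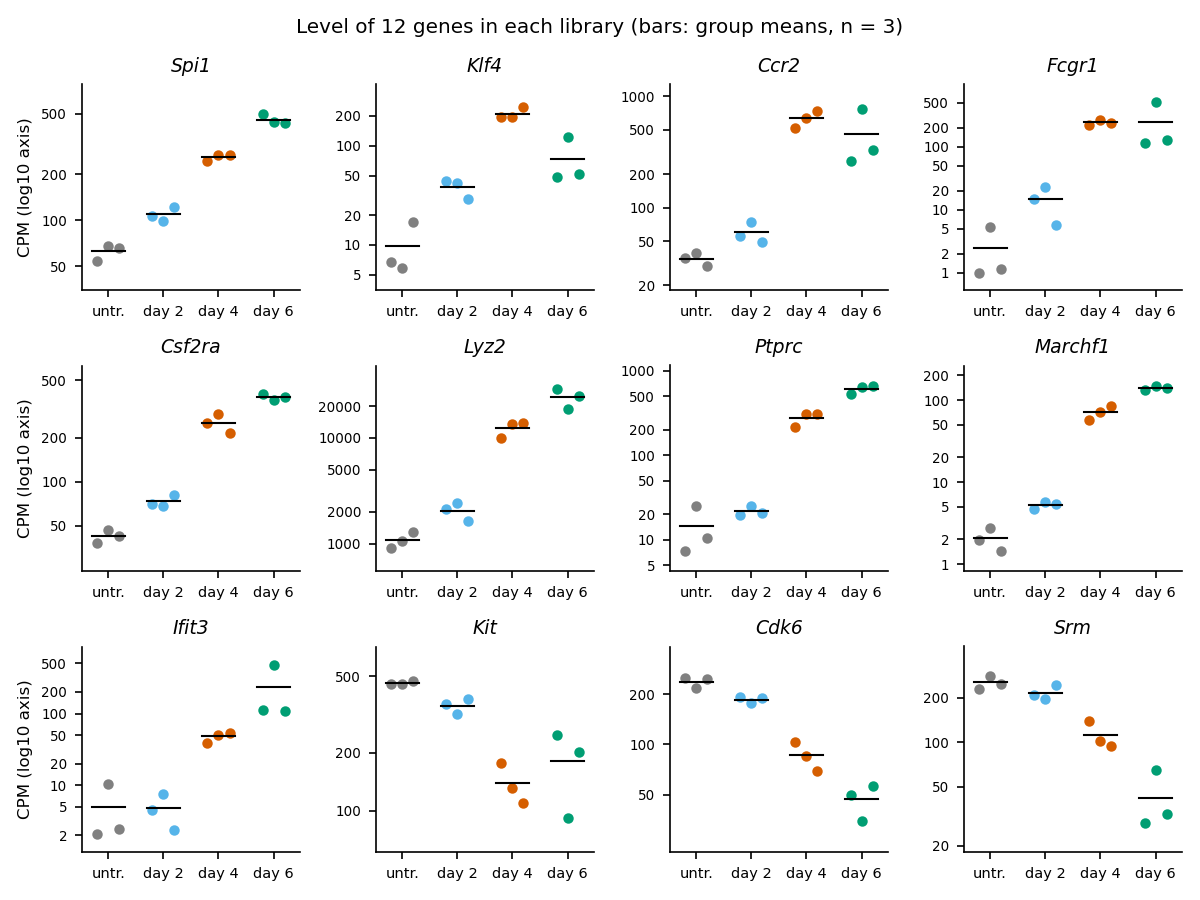
Level of 12 genes (CPM, log10 axis) in each of the 12 libraries, with 1 panel per gene, the 4 groups on the x axis, points for libraries and bars for group means. Spi1, Klf4, Ccr2, Fcgr1, Csf2ra, Lyz2, Ptprc, Marchf1 and Ifit3 lay higher in all day 4 than in all day 2 libraries, Kit, Cdk6 and Srm lay lower.

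Receptors that sense microbes and other cells rose as families. Of 32 Toll-like receptors and nucleic acid sensors 21 were higher and none lower, with a median of 0.77. Tlr8, a receptor for RNA fragments, went from 0.608, 0.915 and 0.131 CPM to 13.4, 22.6 and 29.5 CPM. Tlr13, the receptor for bacterial ribosomal RNA, went from 1.82, 4.21 and 3.54 CPM to 42.8, 70.3 and 64.6 CPM (log2 fold change 4.22 ± 0.32, adjusted p = 1.01e-05). The day 4 libraries of both genes lay above all of day 2. Tlr9, the CpG DNA receptor, Tlr1, Tlr2 and Cd180 rose by ratios of 5.06 to 8.33.

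Among 32 paired immunoglobulin-like receptors, which signal through ITIM or ITAM motifs, 23 were higher and none lower, with a median of 1.63. Pirb, the inhibitory member, went from 11.2, 14.6 and 11.1 CPM to 89.7, 138 and 124 CPM (3.26 ± 0.20, adjusted p = 1.62e-06). Lilra6, Pira1, Pira2, Sirpb1b and Sirpb1c, mostly activating members, rose by ratios of 9.57 to 41.8. Of 19 C-type lectin receptors 9 were higher and none lower, with a median of 0.98. Clec4a1 and Clec4a3 rose from 2.19 and 1.51 CPM to 65.5 ± 19.6 and 45.4 ± 9.84 CPM, Clec10a, a galactose-type lectin, rose 11.04-fold and Clec7a, the beta-glucan receptor, went from 87.8 ± 10.6 to 447 ± 60.2 CPM. Members of the Clec4a, Pira and Sirpb1 groups are close copies, and reads may have been split between them or lost, so their single values are uncertain. Of 7 Fc receptors Fcgr1, Fcgr4 and the common gamma chain Fcer1g rose, while Fcgr3 had 555 ± 27.2 and 589 ± 37.1 CPM (adjusted p = 0.57) and Fcgr2b 285 ± 32.5 and 387 ± 18.9 CPM (adjusted p = 0.0651).

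The cytoplasmic partners of these receptors moved with them, 30 of 40 kinases, adaptors and phosphatases higher and none lower, with a median of 0.95. Ptprc, the CD45 phosphatase of leukocytes, went from 19.6, 24.7 and 20.7 CPM to 217, 305 and 310 CPM (log2 fold change 3.68 ± 0.34, adjusted p = 6.02e-05). Pik3r5, a regulatory subunit of PI3K gamma, went from 1.52, 2.56 and 2.36 CPM to 33.8, 45.1 and 55.5 CPM (4.38 ± 0.25, adjusted p = 7.48e-07). Rasgrp4, a Ras activator of myeloid and mast cells, went from 3.95, 3.29 and 5.11 CPM to 44.6, 48.3 and 51.5 CPM (3.52 ± 0.17, adjusted p = 2.42e-07). No day 4 library of these genes came near the day 2 range. The SRC family kinase Fgr rose 8.68-fold, and Ptpn6, the SHP-1 phosphatase, rose 1.96-fold from 304 ± 19.8 CPM. Ptpro, a receptor phosphatase, rose from 5.05 ± 1.09 to 108 ± 18.2 CPM.

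Downstream signalling lists moved less. Of 32 NF-kappaB and inflammasome genes 20 were higher and none lower, with a median of 0.57, and of 25 JAK, STAT and SOCS genes 9 were higher and none lower, with a median of 0.18. Nlrp1b, an inflammasome sensor, rose 3.218-fold, Nfkbiz, an atypical IkappaB protein, 2.52-fold and Rel, an NF-kappaB subunit, 1.96-fold. Jak2 and Stat2 rose 1.79-fold and 2.46-fold. Of 28 MAP kinase feedback and immediate early genes 8 were higher (28.6%) and 3 lower (10.7%, near the 10.2% of all genes). At least 2-fold, 7 rose and 2 fell, and the log2 fold changes of the tested members ran from -2.655 to 2.372. Myc, described below, was 1 of the falls. Atf3 and Junb, stress-responsive bZIP factors, reached 29.1 ± 3.99 and 52.6 ± 4.77 CPM from 5.74 and 21.5 CPM, and Zfp36, which destabilises cytokine mRNA, rose 2.07-fold.

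Genes of movement and engulfment rose. Of 42 actin, phagocytosis and cytoskeleton genes 33 were higher and none lower, with a median of 0.62. Actb, cytoplasmic actin, had 2318, 2280 and 2406 CPM at day 2 and 4656, 5157 and 4840 CPM at day 4 (log2 fold change 1.07 ± 0.09, adjusted p = 1.31e-05). Lsp1, an actin-binding protein of leukocytes, rose 8.07-fold to 361 ± 86.1 CPM and Cotl1, coactosin, 3.98-fold to 470 ± 76.4 CPM. Aif1, the macrophage protein IBA1, rose from 1.00 to 26.2 CPM. Of 32 integrins and adhesion molecules 18 were higher and none lower, and 11 were higher with library totals alone. Itgam, the CD11b chain, went from 32.5, 46.1 and 82.6 CPM to 203, 376 and 328 CPM (2.49 ± 0.43, adjusted p = 0.00242), and its partner Itgb2 rose 2.41-fold. Itgal and Itgb7 rose 2.63-fold and 3.98-fold, and Icam1, a ligand of these integrins, rose from 2.53 to 20.3 CPM.

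Of 25 chemokine and chemoattractant receptors 13 were higher and none lower, with a median of 1.03. Beside Ccr2, the UDP receptor P2ry6 rose from 0.813 to 17.3 CPM, Gpr35 from 6.00 to 72.8 CPM, Ccr1 from 4.58 to 20.4 CPM and Cx3cr1, the fractalkine receptor, from 16.7 to 56.6 CPM. Cxcr4, which retains cells in the marrow, had 361 ± 25.9 and 480.99 ± 35.1 CPM (adjusted p = 0.115). Among 28 chemokine, cytokine and TNF ligands 12 were higher (42.9%) and 2 lower (7.14%). Ccl6 and Ccl9 rose 7.59-fold and 2.96-fold and Cxcl9 and Cxcl10, ligands induced by interferon, 5.87-fold and 3.66-fold. The falls were Ccl3, from 35.6 ± 7.75 to 19.9 ± 4.10 CPM, and Il12a, from 23.6 ± 4.49 to 10.7 ± 2.39 CPM. Calls that failed in some omissions of 1 library were those of Ccl3 in 2 (up to 0.054 without day 4 replicate 3) and Cxcl10 in 4 (up to 0.09 without day 2 replicate 3).

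Type I interferon-stimulated genes, which code for antiviral proteins and are switched on through factors that bind the interferon-stimulated response element, formed the list with the most called members of the 58. Of 61 tested 52 were higher, 43 of them at least 2-fold, and none lower, with a median log2 fold change of 1.46. Omissions of 1 library gave 38 (without day 2 replicate 3) to 54 rises, library totals alone 45 and the 1.5-fold threshold 20. From untreated cells to day 2 the median of the same list was -0.03, and none of the 61 passed the test of the difference between the steps. The list summed to 2928, 5700 and 3482 CPM in the untreated libraries, replicate 2 standing apart, to 3019 to 4773 CPM at day 2 and to 9936 to 10710 CPM at day 4. Slfn1 went from 5.32, 9.52 and 4.98 CPM to 94.8, 118 and 103 CPM (4.02 ± 0.35, adjusted p = 3.2e-05). Ifit3, which binds antiviral signalling complexes, went from 4.56, 7.69 and 2.36 CPM to 39.5, 50.7 and 53.7 CPM (3.36 ± 0.77, adjusted p = 0.0103). Ifi207, of the family with DNA-sensing HIN domains, went from 20.5, 29.5 and 9.96 CPM to 173, 190 and 189 CPM (3.23 ± 0.55, adjusted p = 0.00214). In the 3 genes the day 4 libraries lay above all day 2 libraries, and day 2 replicate 3 was the lowest of its group. Ifi27l2a rose 13.1-fold and Slfn5 7.19-fold, while Trim30a had 228 ± 75.1 and 382 ± 15.8 CPM (adjusted p = 0.0697). Ifit, Slfn, Oas and Ifi200 genes also have close copies.

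The promoters of 2 of these genes are shown because they hold the core of the response element, and those of 2 other risers because they hold the core of the PU.1 site. Each is the stretch of 250 bases before the annotated start (RefSeq, GRCm38.p6), read 5′ to 3′ on the strand of the gene. Capitals mark GAAA and GAAA with any 2 bases between them in Ifit3 (chr19:34583279-34583528, plus strand) and Ifi207 (chr1:173741810-173742059, minus strand), and GAGGAAGT in Pira1 (chr7:3739918-3740167, minus strand) and Ctsc (chr7:88277835-88278084, plus strand), each searched on both strands.
Ifit3: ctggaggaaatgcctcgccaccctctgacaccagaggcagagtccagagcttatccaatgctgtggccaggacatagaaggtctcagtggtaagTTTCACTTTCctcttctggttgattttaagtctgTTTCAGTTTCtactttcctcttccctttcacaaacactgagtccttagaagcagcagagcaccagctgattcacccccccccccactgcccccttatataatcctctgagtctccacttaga
Ifi207: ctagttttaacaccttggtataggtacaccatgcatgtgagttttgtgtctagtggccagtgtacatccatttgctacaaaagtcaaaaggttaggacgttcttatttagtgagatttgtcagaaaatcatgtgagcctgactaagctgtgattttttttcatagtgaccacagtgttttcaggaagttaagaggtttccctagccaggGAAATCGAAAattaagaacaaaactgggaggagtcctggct
Pira1: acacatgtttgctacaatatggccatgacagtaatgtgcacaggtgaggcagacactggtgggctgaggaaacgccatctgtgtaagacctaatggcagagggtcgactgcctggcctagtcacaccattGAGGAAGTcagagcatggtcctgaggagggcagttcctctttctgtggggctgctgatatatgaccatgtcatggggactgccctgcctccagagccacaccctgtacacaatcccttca
Ctsc: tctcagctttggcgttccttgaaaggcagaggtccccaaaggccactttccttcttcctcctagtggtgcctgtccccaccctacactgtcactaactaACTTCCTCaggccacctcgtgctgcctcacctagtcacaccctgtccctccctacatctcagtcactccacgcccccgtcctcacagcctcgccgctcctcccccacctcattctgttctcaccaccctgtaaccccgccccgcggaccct
Ifit3 holds the response element core at 2 places on the opposite strand, beginning 156 and 122 bases before the start, and Ifi207 holds it once, 41 bases before the start. The GAAA pair occurs in 2.98% of all 32851 promoter windows of this length in the table and GAGGAAGT in 2.44%. The table had a window for 9399 of the 12057 genes, under 80%, so a comparison of these shares between called and uncalled genes is void. A match describes letters in a window and is not a measured binding site.

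Most tested genes of the MHC class II list rose, a list that also holds accessory genes such as Ctss, Ifi30 and Cd86. Of its 19 genes 6 were too low to test. The list summed to 1301, 1438 and 1583 CPM in the day 4 libraries, most of it from Ctss. Of 13 tested genes 11 were higher and none lower, with a median of 2.21. Marchf1, the ubiquitin ligase that removes class II molecules from the surface, went from 4.71, 5.67 and 5.37 CPM to 57.3, 71.3 and 83.7 CPM (log2 fold change 3.75 ± 0.18, adjusted p = 2.42e-07). Ctss, the protease that trims the invariant chain, went from 123, 169 and 97.9 CPM to 961, 1086 and 1252 CPM (3.08 ± 0.48, adjusted p = 0.0012). The groups did not overlap in either gene. Cd74, the invariant chain itself, had 47.3, 41.7 and 15.9 CPM at day 4 against 2.49 to 3.04 CPM, and H2-DMa, which loads peptides, rose 3.13-fold. The class II alpha chain H2-Aa stayed low, at 1.83 ± 0.49 and 6.07 ± 3.74 CPM, and missed the threshold (adjusted p = 0.103). For MHC class I, 9 of 22 genes were higher and none lower, with a median of 0.28. Tapbp, tapasin, rose 2.21-fold to 448 ± 59.1 CPM, while B2m and H2-K1, already at 2500 ± 256 and 2404 ± 229 CPM, missed the threshold (adjusted p = 0.0792 and 0.115). The 9 class I rises became 5 without day 2 replicate 3 and 4 without day 4 replicate 1.

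Effector and clearance lists had more rises than falls, and outside the NADPH oxidase many members did not pass the test. Of 11 NADPH oxidase genes 10 were higher and none lower. Cybb, the catalytic subunit, went from 247, 249 and 167 CPM to 963, 1047 and 697 CPM (2.03 ± 0.29, adjusted p = 0.000645), and the cytosolic subunits Ncf4 and Ncf1 rose 2.21-fold and 1.89-fold. The proton channel Hvcn1 was the member not called, with 233 ± 9.32 and 166 ± 24.7 CPM (adjusted p = 0.143). Of 59 lysosomal genes 32 were higher and 2 lower, with a median of 0.49. Pld4, an endolysosomal nuclease, rose 7.47-fold to 527 ± 74.5 CPM, Lgmn, legumain, 5.96-fold, Ctsc, cathepsin C, 3.70-fold to 724 ± 23.5 CPM and Slc15a3, a peptide transporter, 9.84-fold. The hydrolases Glb1 and Gla fell by ratios of 0.753 and 0.778. Tfe3 and Tfeb, activators of lysosomal genes, rose 2.05-fold and 1.73-fold. With 1 library left out the adjusted p rose past 0.05 for Gla in 4 (up to 0.0954 without day 4 replicate 3).

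Of 16 complement genes 8 were higher and none lower. C4b, Cfb and properdin, Cfp, rose 7.33-fold, 6.58-fold and 5.94-fold, while C3 was at 2374 ± 240 and 2287 ± 211 CPM (adjusted p = 0.875). Of 19 scavenger and clearance receptors 11 were higher and none lower. Axl and Trem2, receptors for phosphatidylserine bridges and lipids, rose 6.29-fold and 6.07-fold. Lpl, lipoprotein lipase, went from 105, 116 and 64.5 CPM to 517, 696 and 578 CPM (2.66 ± 0.22, adjusted p = 1.34e-05). Among 16 genes of leukotriene and prostaglandin synthesis 6 were higher and 1, Ggt5, lower. Hpgd, which inactivates prostaglandins, rose from 3.47 ± 0.51 to 89.2 ± 21.1 CPM, and Alox5ap, the partner of 5-lipoxygenase, rose 2.08-fold. Hmox1, haem oxygenase, rose 4.93-fold. Not every omission of 1 library left the call in place, with failures for Ggt5 in 8 (up to 0.178 without day 4 replicate 2).

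Granulocyte genes changed less evenly. Of 18 primary granule genes, which code for the proteins of the azurophil granules made by promyelocytes, 2 were higher (11.1%) and 5 lower (27.8%). Their median was -0.33. Mpo, myeloperoxidase, went from 11850, 12966 and 12299 CPM to 9670, 8207 and 6155 CPM (log2 fold change -0.63 ± 0.15, adjusted p = 0.00892). Ctsg, cathepsin G, went from 2941, 3280 and 2985 CPM to 2106, 1994 and 1677 CPM (-0.67 ± 0.12, adjusted p = 0.00188). The day 4 libraries of both genes lay below all of day 2. Cst7, cystatin F, Srgn, serglycin, and Dmkn were the other called falls. Elane, neutrophil elastase, had 4943 ± 348 and 3736 ± 1005 CPM (adjusted p = 0.166), and Prtn3, proteinase 3, had 1973 ± 151 and 1911 ± 304 CPM (adjusted p = 0.852). The 2 rises were Ctsc and Prss57. Single omissions also ended the call for Prss57 in 4 (up to 0.138 without day 4 replicate 2) and Srgn in 7 (up to 0.153 without day 4 replicate 3).

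Secondary and tertiary granule genes had 14 of 26 higher and none lower, with a median of 1.45, and neutrophil maturation genes had 18 of 37 higher and 3 lower, with a median of 0.94. Chil3, a chitinase-like lectin, went from 31.9, 57.3 and 64.1 CPM to 740, 1442 and 885 CPM (4.32 ± 0.50, adjusted p = 0.00023). S100a9, a calprotectin subunit, went from 125, 222 and 470 CPM to 773, 1804 and 1061 CPM (2.15 ± 0.57, adjusted p = 0.0199), and S100a8 had 175, 305 and 494 CPM against 808, 1189 and 655 CPM (adjusted p = 0.0528). Day 2 replicate 3 was the highest of its group in S100a8 and S100a9. Ifitm6 rose 7.97-fold, Mmp9, gelatinase B, 3.93-fold and Fcnb, a ficolin, 4.60-fold. The specific granule genes Ltf, Camp, Ngp and Lcn2 had day 4 means of 115 ± 39.0, 391 ± 153, 597 ± 269 and 232 ± 81.5 CPM and missed the threshold (adjusted p = 0.105, 0.135, 0.0838 and 0.0692). Ly6g, the antigen of mature neutrophils, rose from 0.765 to 3.43 CPM with overlapping libraries (adjusted p = 0.041). The 3 falls were Ifitm1, Slpi and Dgat2. The count of 18 maturation genes went down to 8 without day 2 replicate 1 or 2, 7 without day 4 replicate 2 and 9 without day 4 replicate 3. Among these genes the adjusted p passed 0.05 when a single library was left out for Dgat2 in 5 (up to 0.139 without day 2 replicate 3), Fcnb in 4 (up to 0.109 without day 4 replicate 2), Ly6g in 7 (up to 0.171 without day 4 replicate 3) and S100a9 in 3 (up to 0.0699 without day 4 replicate 2).

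The sum of the 38 neutrophil maturation genes was 3969, 4542 and 5778 CPM at day 2 and 7061, 10130 and 8043 CPM at day 4, against a mean of 100800 CPM at day 6. The 41 monocyte and macrophage genes summed to 13710, 14530 and 11110 CPM and to 28300, 33270 and 34370 CPM. Neither sum overlapped between the days. Day 2 replicate 3 had the highest neutrophil and the lowest monocyte sum of its group. The 18 eosinophil, basophil and mast cell genes summed to 93.1, 155.8 and 303.7 CPM at day 2 and to 155.7, 1173 and 629.5 CPM at day 4, with overlap. Prg2, the eosinophil major basic protein, carried most of the sum in day 4 replicates 2 and 3 but not in replicate 1, with 35.3, 676 and 383 CPM in replicates 1 to 3, and Alox15, an eosinophil and macrophage enzyme, followed the same order of libraries. The part of such cells in the rise of Alox15 was not tested. Stromal and endothelial genes, 17 in the list, summed to 332 to 358 CPM at day 2 and 190 to 240 CPM at day 4, carried mostly by Pdgfrb and Runx2. Leaving out 1 library took the adjusted p above 0.05 for Prg2 in 4 (up to 0.0899 without day 4 replicate 2) and Runx2 in 4 (up to 0.0976 without day 4 replicate 3).

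**Figure D3:**
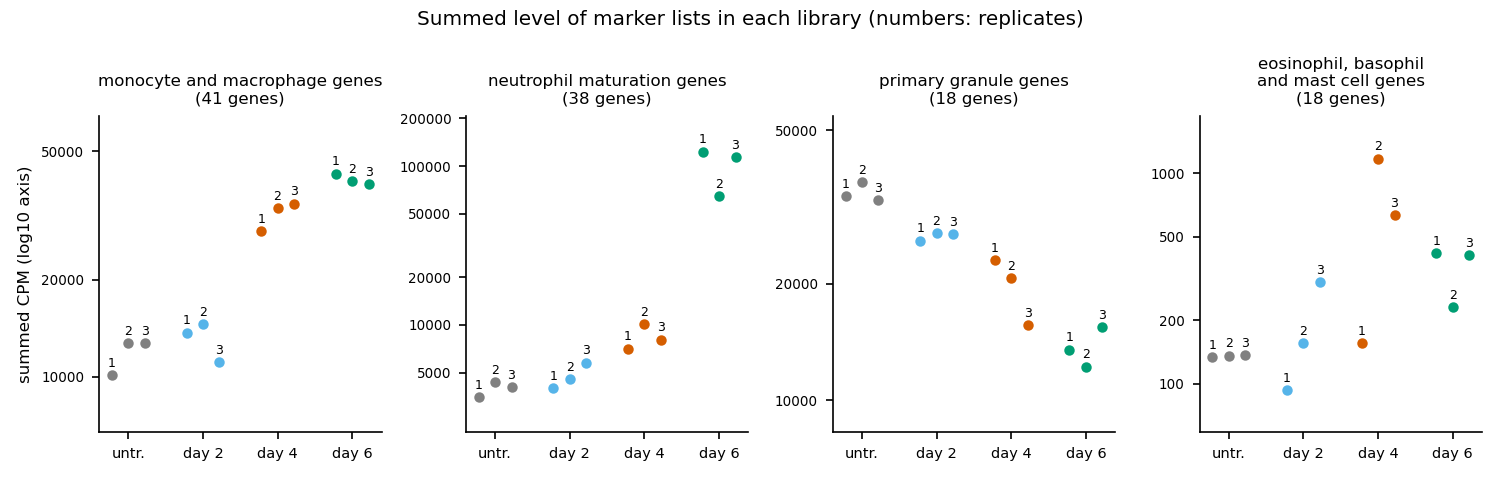
Summed level (CPM, log10 axis) of 4 marker lists in each of the 12 libraries, with the groups on the x axis and replicates as points labelled 1 to 3. Monocyte and macrophage genes at day 4 lay above day 2 in every library, neutrophil maturation genes rose further at day 6, and the eosinophil, basophil and mast cell sum of day 4 replicate 1 lay within the day 2 range.

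The 15 largest falls were Serpinh1, Col16a1, Smoc2, Shroom2, Armcx4, Enpp2, Bhlha15, Ablim1, Adamts9, Umodl1, Sdc4, Inava, Stra6, Nebl and Syde1, with levels at day 4 between 0.12 and 0.251 of those at day 2. Serpinh1, the collagen chaperone, went from 38.1, 32.9 and 31.1 CPM to 4.20, 3.94 and 4.11 CPM (log2 fold change -3.05 ± 0.43, adjusted p = 0.000572). Col16a1, a collagen chain, went from 50.1, 43.2 and 47.2 CPM to 6.00, 4.96 and 7.49 CPM (-2.93 ± 0.28, adjusted p = 4.06e-05). Both were tight within each day and far apart between days. Stra6, the retinol transporter, fell from 80.6 ± 5.42 to 19.4 ± 7.05 CPM, and Igfbp7, a secreted binding protein of growth factors, from 152 ± 17.7 to 38.9 ± 6.62 CPM. Of 21 tested matrix and matrix metalloproteinase genes 11 were higher and 4 lower, with a median of 0.67, and Adam19, Fn1 and Vcan were among the rises. Their summed level was 1733 to 3001 CPM at day 2 and 2805 to 4989 CPM at day 4, with overlap. Nebl was lower with a wide day 2 range of 7.44, 5.67 and 30.4 CPM. The call was lost in some of the 12 omissions of 1 library, for Nebl in 9 (up to 0.289 without day 2 replicate 3).

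Progenitor genes were called in both directions, and few of them were called. Of 20 progenitor surface and cytoplasmic markers 3 were higher (15%, the share of all genes) and 4 lower (20%, against 10.2%), with a median of -0.43. Of 22 progenitor transcription factors 1, Ikzf1, was higher (4.55%) and 4 were lower (18.2%). The 4 falls of transcription factors became 1 without day 2 replicate 3, day 4 replicate 2 or day 4 replicate 3, and 2 without day 2 replicate 1. Kit, the stem cell factor receptor, went from 358, 318 and 381 CPM to 177, 131 and 109 CPM (-1.34 ± 0.29, adjusted p = 0.00694). Myb, the progenitor proto-oncogene, went from 494, 378 and 540 CPM to 368, 293 and 242 CPM (-0.65 ± 0.19, adjusted p = 0.0251). Neither overlapped between the days. Adgrg1, an adhesion receptor of stem cells, fell from 56.9 ± 7.34 to 21.3 ± 2.87 CPM and Hlf, a stem cell bZIP factor, from 14.97 ± 4.75 to 5.79 ± 1.55 CPM. Flt3 and Cd34 were low, at 7.94 ± 0.683 and 1.25 ± 1.42 CPM at day 2 and 10.8 ± 1.43 and 2.94 ± 1.66 CPM at day 4 (adjusted p = 0.698 and 0.32). Cd93 had 506 ± 58.7 and 392 ± 14.7 CPM (adjusted p = 0.246), and Cd48 rose from 2.46 to 26.9 CPM. Omitting single libraries ended the call of Myb in 4 (up to 0.107 without day 4 replicate 3).

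Genes of growth and ribosome production fell by small amounts, with single libraries deciding how many were called. Of 50 ribosome biogenesis genes 20 were lower and none higher, with all 50 log2 fold changes below 0 and a median of -0.37. Of 69 cytosolic ribosomal proteins 26 were lower and none higher, with a median of -0.33, and of 33 genes of nucleotide, folate and polyamine synthesis 17 were lower and none higher, with a median of -0.49. Myc, which drives these genes in many cells, went from 166, 223 and 206 CPM to 129, 127 and 76.8 CPM (-0.84 ± 0.25, adjusted p = 0.0294). Srm, spermidine synthase, went from 209, 197 and 243 CPM to 139, 103 and 93.8 CPM (-0.95 ± 0.25, adjusted p = 0.0178). The groups did not overlap in either gene. Odc1, the first enzyme of polyamine synthesis, Cad, of pyrimidine synthesis, and Phgdh and Shmt1, of serine and folate metabolism, fell to 0.542, 0.542, 0.478 and 0.493 of day 2. Dkc1 and Gnl3, nucleolar proteins, fell to 0.572 and 0.602, Npm1 to 0.633 and Polr1a and Polr1b, of RNA polymerase I, to 0.639 and 0.65. Mxd1 and Mnt, repressors that pair with MAX, rose 1.57-fold and 1.36-fold. Without day 4 replicate 3 the lower ribosome biogenesis genes, ribosomal proteins and synthesis genes numbered 6, 13 and 10, with day 4 replicate 2 left out 7, 14 and 7, and with day 2 replicate 1 left out 11, 17 and 11. Without day 2 replicate 2 or 3 the biogenesis genes numbered 12 and 9, without day 6 replicate 2 they numbered 31, and the synthesis genes numbered 9 without day 2 replicate 3. None of the biogenesis genes or ribosomal proteins passed a threshold of 1.5-fold. Calls that failed in some omissions of 1 library were those of Cad in 3 (up to 0.0633 without day 4 replicate 2), Mnt in 6 (up to 0.146 without day 2 replicate 2), Myc in 4 (up to 0.101 without day 4 replicate 3), Npm1 in 2 (up to 0.0578 without day 4 replicate 3), Odc1 in 4 (up to 0.101 without day 4 replicate 3), Phgdh in 8 (up to 0.148 without day 4 replicate 2) and Srm in 3 (up to 0.0766 without day 4 replicate 3).

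Other genes of protein synthesis and energy, apart from glycolysis and pentose phosphate enzymes, changed little. Of 36 genes of translation initiation and tRNA charging 1 was higher (2.78%) and 3 lower (8.33%). Of 53 mitochondrial ribosomal proteins 3 were lower (5.66%), and of 50 respiratory chain subunits 2 were higher (4%) and 1 lower (2%). These shares lay under those of all genes, 15% and 10.2%. None of the 13 mitochondrial genome transcripts was called. Glycolysis and pentose phosphate enzymes had 12 of 35 higher (34.3%) and 3 lower (8.57%), with Hk2, hexokinase 2, rising 1.55-fold and Pfkfb4 1.92-fold. Their 12 rises became 8 with library totals alone and with upper-quartile factors. Omissions of 1 library left 8 to 13 rises and 0 to 3 falls. Of 35 sterol genes 4 were higher (11.4%) and 4 lower (11.4%), near the shares of all genes. The rises numbered 12 without day 6 replicate 2, and none was left without day 2 replicate 1, day 4 replicate 2 or day 4 replicate 3. Heat shock genes had 1 of 21 higher (4.76%) and 2 lower (9.52%), and chaperones of the endoplasmic reticulum 1 of 28 higher (3.57%) and 2 lower (7.14%). Asns, asparagine synthetase, fell to 0.657. With 1 library left out the adjusted p rose past 0.05 for Asns in 5 (up to 0.135 without day 2 replicate 3).

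Few cell cycle genes passed the test. Of 55 mitosis and spindle genes 5 were higher (9.09%, against 15% of all genes) and none lower, with a median of 0.17 that became 0.027 with library totals alone. Of 50 DNA replication genes 9 were lower (18%, against 10.2% of all genes) and none higher, with a median of -0.18. The log2 fold changes of 48 of the 50 lay below 0. Mki67, a marker of cycling cells, had 1064, 1029 and 793 CPM at day 2 and 1001, 943 and 1190 CPM at day 4 (adjusted p = 0.663), and Mcm5, a replicative helicase subunit, had 377 ± 14.7 and 338 ± 41.8 CPM (adjusted p = 0.297). With library totals alone 32 replication genes were lower, and with upper-quartile factors 20. Omissions of 1 library left 1 (day 4 replicate 2) to 17 (day 6 replicate 2) replication genes lower and 1 (day 2 replicate 3) to 12 (day 6 replicate 2) spindle genes higher. Racgap1 and Kif23, of the central spindle, rose 1.52-fold and 1.57-fold. Of 34 G1 cyclins, kinases and inhibitors with the E2F and RB family, 6 were higher (17.6%) and 4 lower (11.8%), near the shares of all genes. Their median was -0.018, so the members named next do not stand for the list. The G1 kinase Cdk6 went from 192, 176 and 188 CPM to 104, 85.7 and 69.9 CPM (-1.10 ± 0.16, adjusted p = 0.00054), and Cdk4 fell to 0.686 of day 2. Ccnd3, the D cyclin of blood cells, rose 1.48-fold, while Ccnd1 was at 2.80 and 3.25 CPM (adjusted p = 0.773). The inhibitors Cdkn2d and Cdkn1b rose 1.90-fold and 1.51-fold, and Cdkn1a had 45.1 ± 7.05 and 70.8 ± 7.26 CPM (adjusted p = 0.156). E2f2 rose 2.23-fold, Rb1 1.45-fold and Btg2, an antiproliferative gene, 3.77-fold. Not every omission of 1 library left the call in place, with failures for Ccnd3 in 3 (up to 0.0713 without day 2 replicate 3), Cdk4 in 2 (up to 0.0631 without day 4 replicate 2), Cdkn1b in 4 (up to 0.0602 without day 4 replicate 3) and Kif23 in 7 (up to 0.122 without day 2 replicate 3).

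Of 23 genes of survival and death 14 were higher and 1 lower, with a median of 0.42. Mcl1, a survival protein of myeloid cells, went from 344, 411 and 375 CPM to 656, 784 and 736 CPM (0.94 ± 0.12, adjusted p = 0.000173). Bcl2, another survival protein, was the member that fell, from 57.7, 53.1 and 38.9 CPM to 32.1, 17.5 and 24.4 CPM (-1.01 ± 0.23, adjusted p = 0.00763). The 2 genes thus moved in opposite directions with no overlap. The BH3-only killers Bmf, Bcl2l11 and Pmaip1 rose 2.08-fold, 1.91-fold and 2.04-fold, and Bax rose 1.42-fold. With library totals alone 8 of the 14 rises were called. Single omissions also ended the call for Bcl2l11 in 4 (up to 0.0978 without day 4 replicate 3) and Pmaip1 in 4 (up to 0.114 without day 4 replicate 2).

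**Figure D4:**
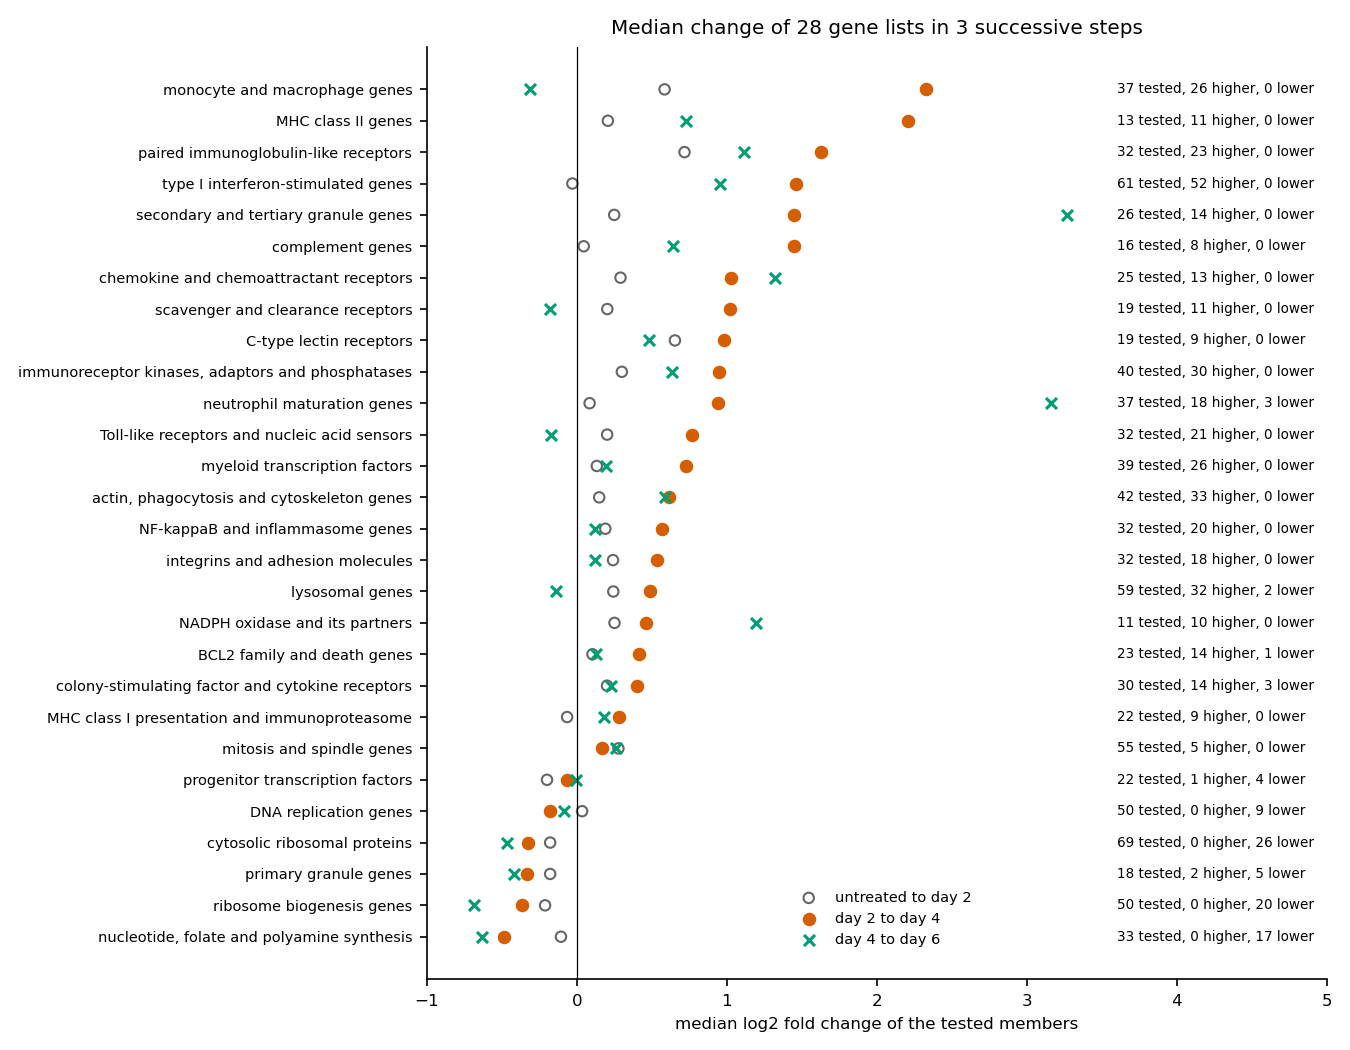
Median log2 fold change (x axis) of 28 gene lists over 3 successive steps, untreated to day 2 (open circles), day 2 to day 4 (filled circles) and day 4 to day 6 (crosses), with the number of members tested, called higher and called lower from day 2 to day 4 written at the right. The steps share libraries, and lists share genes. Interferon-stimulated genes lie at -0.03, 1.46 and 0.95 and neutrophil maturation genes at 0.09, 0.94 and 3.16.

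A minor part of the 646 rises of at least 2-fold fell into runs of neighbouring genes. Runs of at least 4 consecutive tested genes, each called and at least 2-fold higher, numbered 12, and no such run was lower. Falls of at least 2-fold were rarer (2.69% of the genes, against 5.36%), and the number of runs was not tested. The longest held 8 genes of the Ms4a cluster (chr19:11067471-11604804 on GRCm38), with log2 fold changes of 2.94 to 6.81. Runs of 7 lay in the Ifi200 cluster (chr1:173673628-174031755, 1.55 to 3.68) and in the Pira and Lilr cluster (chr7:3712505-4073567, 1.22 to 3.90). The Oas cluster gave 6 (chr5:120730333-120907544), the Sirpb1 and Slfn clusters 5 each, and Aif1, Lst1, Ltb and Tnf (chr17:35170986-35202007) made a run of 4. Most of these runs are families of close copies, so reads shared between copies can tie their values together.

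The step was set against its neighbours by testing the difference of the log2 fold changes, which has a larger error than a single step. The neighbouring steps use the same day 2 or day 4 libraries. From untreated cells to day 2, 126 genes were higher (1.05%) and 49 lower (0.406%), and from day 4 to day 6, 46.3% of the genes were called, with 2851 higher (23.6%) and 2726 lower (22.6%). The change from day 2 to day 4 was more positive than that from untreated to day 2 in 18 genes (0.149%) and more negative in 5 (0.0415%). These 23 became 2 without any 1 day 2 library, 4 and 5 without day 4 replicates 2 and 3, 39 without day 4 replicate 1, 13 to 16 without an untreated library and 242 without day 6 replicate 2, and DESeq2 called 244. Rasgrp4 had log2 fold changes of 0.06 before and 3.52 in the step, Pik3r5 0.33 and 4.38, and Fgr 0.23 and 3.12. Adam19 had 0.43 and 5.03, Tlr13 -0.10 and 4.22, Actb 0.08 and 1.07 and Prkx, a protein kinase, 0.29 and 1.93. Among the falls Col16a1 had -0.13 and -2.93, Igfbp7 0.08 and -1.97 and Tspan4, a tetraspanin, -0.24 and -1.35. None of these 10 genes passed the test from untreated cells to day 2.

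The change from day 4 to day 6 was more positive than that from day 2 to day 4 in 753 genes (6.25%) and more negative in 945 (7.84%). Of the 1812 genes called higher at day 4, 610 (33.7%) had a smaller next step by this test and 55 (3.04%) a larger one. Among the 610, 286 were also called lower from day 4 to day 6. Of the 1230 called lower, 121 (9.84%) had a smaller next fall. Among the 121, 84 were also called higher at day 6 than at day 4. The genes called higher had a median of 0.72 in the step and 0.23 in the next, and those called lower -0.61 and -0.475. The difference between the shares of 33.7% and 9.84% was not tested. Both sets were chosen by their day 4 libraries, which enter the next step with the opposite sign. That choice alone favours a smaller next step, in the counts and in the medians. Of the 1698 genes in both directions, 693 to 993 were called without 1 day 4 library, 1149 without day 2 replicate 3 and 3823 without day 6 replicate 2.

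Galnt9, Rnase6, Ace, Prg2 and Fgfr2 were among the 8 named genes with the most negative difference between the next step and this one. Galnt9 had a mean of 10.05 CPM at day 4 and 6.35 CPM at day 6, Rnase6 47.3 and 34.0 CPM, Ace 66.3 and 25.9 CPM and Prg2 365 ± 321 and 33.2 CPM. Fgfr2, a growth factor receptor, went from 4.99 at day 2 to 17.4 and then 1.15 CPM. In the list of monocyte and macrophage genes 21 of 37 had a next step below that of day 2 to day 4, and none above. Klf4 fell to 73.7 CPM at day 6, while Irf5 had 142 CPM there and missed the threshold (adjusted p = 0.0581). Genes with a larger next step included Mmp9, at 14.98, 58.9 and 2644 CPM on days 2, 4 and 6, Slc2a3, a glucose transporter, at 15.6, 27.9 and 598 CPM, and Slfn4 at 19.1, 41.9 and 695 CPM. Of the 37 neutrophil maturation genes 14 had a next step above that of day 2 to day 4, and none below. Satb1, a chromatin organiser, Ccno, a cyclin family member, and Tinagl1 fell by day 4 and stood higher at day 6 than at day 2, at 67.1, 81.3 and 291 CPM. Among these genes the adjusted p passed 0.05 when a single library was left out for Fgfr2 in 3 (up to 0.0597 without day 4 replicate 3), Satb1 in 1 (up to 0.0551 without day 4 replicate 3), Slc2a3 in 9 (up to 0.171 without day 4 replicate 2) and Slfn4 in 8 (up to 0.143 without day 2 replicate 1).

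**Figure D5:**
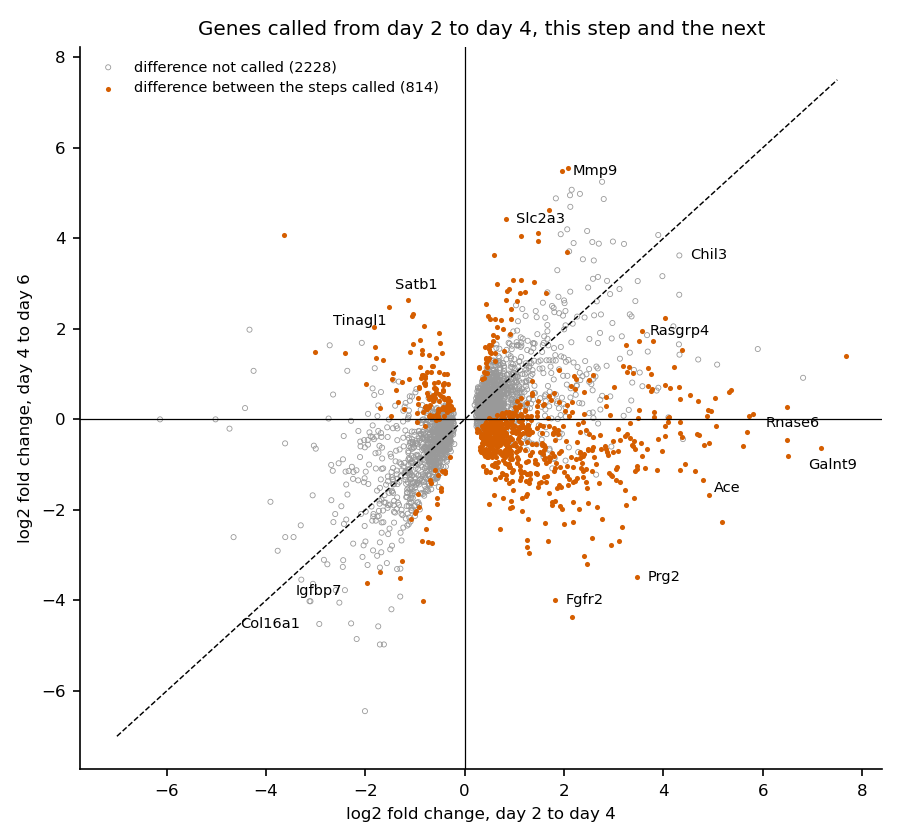
Log2 fold change from day 2 to day 4 (x axis) against that from day 4 to day 6 (y axis) for the 3042 genes called in the first, with filled points where the difference between the 2 steps passed the test. The dashed line marks equal steps, and both steps use the day 4 libraries, so their errors are shared.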

How the data were processed

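RNA of sorted cells was sequenced in 12 libraries. The authors deposited whole-number read counts per Entrez gene. The submitters' processing notes name mm10, CASAVA 1.8.2, featureCounts, edgeR 3.8.2 and limma 3.22.0 with no role. The aligner is not given in the sources used here, nor is strandedness, so reads of overlapping antisense genes cannot be told apart. Symbols came from the reference table for 25275 of 27179 IDs, and the 1904 others were left unnamed. Counts were fitted with edgeR 4.0.16 in R 4.3.3 (filterByExpr, TMM, robust quasi-likelihood, group as the only term, 8 residual degrees of freedom, two-sided, Benjamini-Hochberg adjustment). Factors were 1.11 to 1.14 at day 2 and 1.02 to 1.03 at day 4, and the biological coefficient of variation was 14.3%. The 2 contrasts between steps came from the same fit. Permutation tests used log2 CPM with a pseudocount of 0.5.

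Genes were named by a rule: a fixed list, the 15 largest rises and falls at 10 CPM or more without overlap, the leading called and most abundant uncalled members of 58 lists (1691 genes, 14 entries unmatched), and the 8 largest differences between steps in each direction. The rule gave 453 genes, and those printed were selected for length with values known. Actb, Lst1, Ltb, Tnf, Hgd, Kif21a, Ms4a8a and Slamf8 fell outside it and were chosen after their values were seen. Members and lists were chosen with earlier results of these data known.

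Alternatives were RLE, upper-quartile and library-total scaling, DESeq2 1.42.0, limma voom 3.58.1, no filter, 5 CPM in 3 libraries, a 1.5-fold threshold, the 6 libraries alone, a replicate block, each library left out in turn and, added after seeing the data, no day 6 libraries. The fit was tested on simulated data.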

Additional observations from a re-analysis of the deposited data

Results flagged for a closer look

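The step from day 2 to day 4 differed from its neighbours by a test of the difference of the log2 fold changes themselves, and these differences deserve a closer look because the steps share libraries. Against the step from untreated cells to day 2, the change was more positive in 18 genes, Rasgrp4, Pik3r5, Adam19, Tlr13 and Actb among them, and more negative in 5, among them Col16a1, Igfbp7 and Tspan4. Against this step, the change from day 4 to day 6 was more positive in 753 genes, with Mmp9 and Slc2a3 among them, and more negative in 945, with Rnase6, Ace and Fgfr2 among them. Groups of 3 libraries were too small to look for single outlying values.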

How the results depend on the processing

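Results were recomputed under each alternative, 1 choice at a time, except that the block in the 6 libraries changes both the term and the libraries. The count of higher genes went to 462 under the 1.5-fold threshold. The count of lower genes went to 1897 with upper-quartile factors, 2312 with library totals, 153 under the 1.5-fold threshold and 2002 with the 6 libraries alone, and omissions of 1 library gave 581 to 1882. The count of genes whose step differed from the one before went to 6 with library totals, 244 with DESeq2, 4 under the 1.5-fold threshold and 159 without the 3 day 6 libraries, an alternative added after seeing the data, and omissions gave 2 to 242. The count for the step after went to 638 under the 1.5-fold threshold, and omissions gave 693 to 3823. Trp53 kept its log2 fold change of -0.49 but did not pass the 1.5-fold threshold. The cause of these shifts was not tested, except that the 1.5-fold threshold asks for a larger change by construction. The direction of Spi1 was the same in every alternative and omission run.

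Of the 214 named calls 11 were lost with limma voom, Siglec1, Alox15, Stfa2 and Ms4a6b among them, and 1 other named gene was called. Without a filter 16 were lost and none gained. The 6 libraries alone lost 7, Alox15, Stfa2, Prg2 and S100a9 among them, and gained 11. Library totals lost 9 and gained 3, and the 1.5-fold threshold lost 79. No called gene that is named reversed. With library totals Fcgr3 went to -0.05 and Mki67 to -0.02. Omissions of 1 library gave log2 fold changes of -0.14 to 0 for C3, -0.23 to 0.57 for Ccnd1, -0.04 to 0.63 for Cebpe, -0.26 to 0.13 for Irf8, 0 to 0.20 for Mki67 and -0.12 to 0.08 for Prtn3. The median of the megakaryocyte markers was -1.266 under the stricter filter, and that of the B cell markers 0 without a filter, both for lists with few counts. Medians near 0 also turned sign, that of the autophagy genes from 0.008 to -0.13 with library totals and -0.076 with upper-quartile factors, and that of the glutathione, antioxidant and iron genes from 0.079 to -0.059 and -0.005.

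With the replicate number as a block 1723 genes were higher and 1074 lower, and 42 differed between this step and the one before. In the 6 libraries the block gave 2129 higher and 1709 lower. Residuals of day 2 and day 4 libraries with the same number correlated at 0.29, -0.0908 and -0.103, so the libraries share a number and no pairing was taken from it. At these depths 3 counts equalled 0.446 to 0.610 CPM, depending on the library, and levels near that range rest on a few counts.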

Other observations

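Other lists are set here beside the share of all genes called from day 2 to day 4, 15% higher and 10.2% lower. Of 16 S100 and stefin A genes, which share members with the neutrophil maturation list, 9 were higher (56.2%) and 1 lower, with a median log2 fold change of 1.299. The 9 rises became 4 without day 2 replicate 1, day 2 replicate 2 or day 4 replicate 2, and 5 without day 4 replicate 3. S100a6, a calcium-binding protein of many motile cells, went from 62.6, 69.7 and 77.2 CPM to 217, 318 and 344 CPM (2.07 ± 0.24, adjusted p = 0.000173). S100a4, its neighbour on the chromosome, rose 3.09-fold to 483.5 ± 136 CPM and fell back to a mean of 184 CPM at day 6. Stfa2, a cysteine protease inhibitor with close copies in the genome, had 0.304, 0.915 and 6.29 CPM at day 2 and 12.9, 53.9 and 63.1 CPM at day 4 (adjusted p = 0.00998), and day 2 replicate 3 was again the highest of its group.

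Of 22 genes made up of Trp53 and its known targets 5 were higher (22.7%) and 1 lower in these cells labelled as lacking p53, and the fall was Trp53 itself. The rises were Btg2, Pmaip1, Bax, Fas, a death receptor, at 18.9 ± 2.80 and 29.6 ± 2.24 CPM, and Trp53inp1, at 51.8 ± 4.85 and 79.2 ± 8.41 CPM. With library totals alone 2 genes were higher, as without day 4 replicate 2 or day 4 replicate 3, and 3 were higher without day 2 replicate 1 or 2. Fas lost its call in 4 of the 12 omissions of 1 library (up to an adjusted p of 0.0868 without day 2 replicate 1) and Trp53inp1 in 5 (up to 0.111 without day 2 replicate 1). Of 16 genes of the nuclear lamina and nuclear shape 6 were higher (37.5%) and 1 lower, among the rises Tor1aip1, which binds lamins, at 139 ± 14.9 and 227 ± 8.26 CPM (adjusted p = 0.00131). The 6 rises became 3 without day 2 replicate 3 or day 4 replicate 3, and the fall was lost in 9 of the 12 omissions of 1 library. Of 41 chromatin and DNA methylation regulators 3 were higher (7.32%) and 1 lower (2.44%), both shares under those of all genes, with the acetyltransferases Crebbp and Ep300 rising 1.33-fold and 1.29-fold and the methyltransferase Dnmt3b falling to 0.67 of day 2. Crebbp, Ep300 and Dnmt3b lost their calls in 3, 2 and 1 omissions (up to 0.0688 without day 2 replicate 3, 0.058 without day 4 replicate 3 and 0.0528 without day 4 replicate 2). Under library totals 14 of the 41 were lower and with upper-quartile factors 8. Without day 6 replicate 2 the list had 6 higher and 7 lower, without day 2 replicate 3 1 higher, without day 4 replicate 2 none lower, and without untreated replicate 3 or day 6 replicate 3 2 lower. Autophagy genes, with 5 of 38 higher (13.2%) and 3 lower (7.89%), and glutathione, antioxidant and iron genes, with 6 of 38 higher (15.8%) and 4 lower (10.5%), lay near the shares of all genes. The glutathione list had 3 rises without day 2 replicate 1, day 4 replicate 2 or day 4 replicate 3, and 12 without day 6 replicate 2.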
